A study of Mus musculus with 6 samples.

Results

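Calpains are calcium-dependent cysteine proteases of the cytosol, and calpastatin is their dedicated inhibitor. The classical enzymes are heterodimers in which the catalytic subunit calpain-1 or calpain-2, encoded by Capn1 and Capn2, pairs with the small regulatory subunit encoded by Capns1. In activated platelets they cut cytoskeletal and signalling proteins such as talin, filamin and the integrin beta 3 tail, and mice that lack calpain-1 have impaired platelet aggregation and clot retraction. The nonclassical members Capn5, Capn7, Capn10 and Capn15 lack the calcium-binding penta-EF-hand domain and bind no small subunit. The 8 genes described here are Capn5, Capn1, Capn2, Capn7, Capn10, Capn15, Capns1 and Cast, the calpastatin gene. They were taken by symbol, and 7 of the 8 were among the 9822 genes tested, while Capn10 was not analysed here. The family was chosen because Capn5 had the highest log2 fold change of all 9822 genes, so its difference between genotypes is given as a description with no test. The other members were included for their family name, whatever their values.

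The tested mice were heterozygous for Nxf1 C587R (Nxf1+/C587R), a missense change in the mRNA export receptor, and their controls were wild-type littermates, all males on a BalB/c background. Platelets, the anucleate fragments shed by megakaryocytes, were purified, and suspensions of 1 genotype were pooled, so each of the 3 mutant and 3 wild-type libraries of polyA RNA is a pool. On each of 3 preparation days 1 mutant and 1 wild-type pool was made. The labels give neither the number nor the age of the animals in a pool, and the change is present in the whole animal, not in platelets alone.

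Library totals ranged from 25483332 to 29421549 counts in mutant and from 25189231 to 26974129 in wild-type pools. Levels are given as CPM, which are counts scaled to library totals after TMM adjustment. All 10 platelet markers (Itga2b, Gp9, Pf4, Ppbp and others) were measured. Their summed levels were 42273 to 46950 CPM in mutant and 33195 to 40522 CPM in wild-type pools. Of the platelet markers 4 were higher and 1, Gp9, lower in mutant pools (7 and 1 in the fit blocked by preparation day). The median log2 fold change was 0.30, and that of Gp9 was -0.40. Beside these and the marker counts below, 12.9% of all 9822 genes were higher and 9.16% lower, or 22% and 18% with the block. The 2 libraries of day 1 stood apart by red cell transcripts. The summed level of 6 red cell markers on day 1 was 31513 CPM in the mutant and 35714 CPM in the wild-type pool, while on the other days it was 3968 and 4558.5 CPM in mutant, against 4305 and 4427 CPM in wild-type pools. B cell markers moved with genotype: all 10 were measured, 4 were lower and 0 higher in mutant pools (7 and 0 with the block), and their summed level was 267 to 335 CPM in mutant, against 341 to 458 CPM in wild-type pools, with no marker at 0. Of 7 measured T cell markers 0 were called, or 2 as lower with the block, and Cd3e was not among the genes tested. Of 4 measured endothelial markers 1 was higher and 0 lower (4 and 0 with the block). Their summed levels were 508 to 573 CPM in mutant, against 391 to 468 CPM in wild-type pools. Esam made up most of these sums, with 521, 485 and 459 CPM in mutant, against 428, 420 and 358 CPM in wild-type pools. Cdh5, Kdr and Plvap averaged only 2.65, 11.1 and 37.3 CPM in mutant, against 1.78, 8.50 and 28.5 CPM in wild-type pools. The sums thus mainly follow Esam, and whether its reads come from endothelial cells or from platelets cannot be told here. The 10 most abundant genes took 37.0% to 38.8% of counts in mutant and 41.6% to 45.1% in wild-type pools. In these bulk samples fewer cells of a type and less RNA per cell cannot be told apart. Nxf1 itself averaged 3.29 ± 0.894 CPM in mutant, against 3.73 ± 1.05 CPM in wild-type pools (SD, n = 3 each), a level that does not check the labels of a missense change.

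Capn5, whose product has a catalytic core like that of the classical enzymes and is related to the sex-determination protease TRA-3 of Caenorhabditis elegans, had the highest fold change of the family. Its gene (Entrez 12337) lies on the minus strand of chromosome 7, from 98121559 to 98178946 in mm10, and has up to 13 exons. The 3 mutant pools held 560, 370 and 494 reads of Capn5 on days 1, 2 and 3, and the wild-type pools held 110, 81 and 151. Scaled to TMM-adjusted library totals, this was 20.9, 15.1 and 18.3 CPM in mutant, against 4.25, 3.37 and 4.88 CPM in wild-type pools. Every mutant pool lay above every wild-type pool, and day 2 was the lowest day in both genotypes. The log2 fold change of mutant over wild type was 2.11 ± 0.16 (SE), a 4.32-fold higher level in mutant platelets. Within days the log2 difference was 2.30, 2.17 and 1.91 on days 1, 2 and 3. Without the red-cell-rich pools of day 1 it was 1.97, so the size of the difference was nearly as large without those libraries. Among the 3017 genes that averaged 10 CPM or more, the log2 fold change of Capn5 ranked 1. This rank, and the lead of Capn5 within the family, follow from its choice by fold change.

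**Figure D1:**
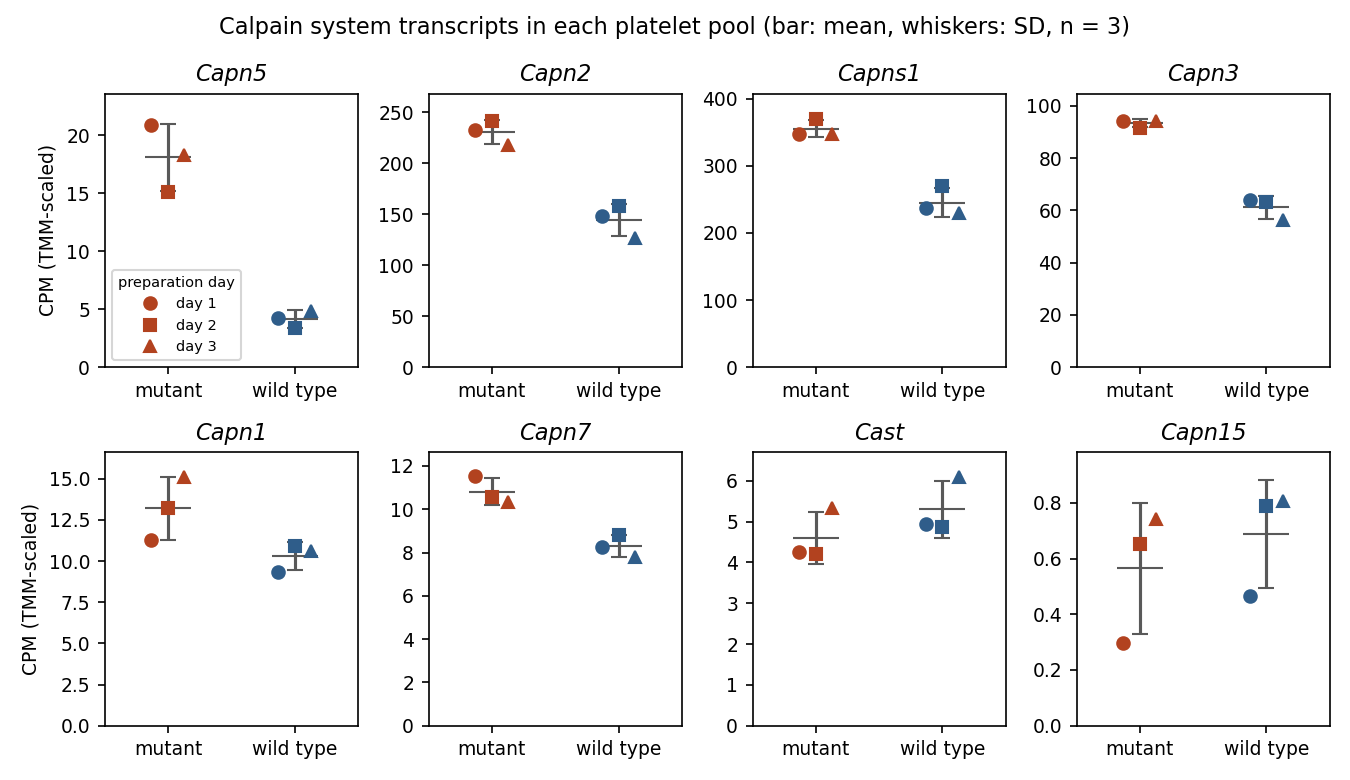
Level of each measured calpain gene and of Cast in the 3 mutant and 3 wild-type platelet pools, in CPM on linear axes that start at 0, with symbols for the preparation day, a bar for the mean and whiskers for the SD. Capn3, which is outside the 8 genes, is shown as a further family member. For Capn5, Capn2, Capns1, Capn3, Capn1 and Capn7 every mutant pool lies above every wild-type pool, and for Cast and Capn15 the genotypes overlap.

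Of the 2 neighbouring genes measured within 200 kb of Capn5, 0 were called. Myo7a, a myosin gene that ends 2037 bases below Capn5, had 1.72 ± 0.482 CPM in mutant, against 1.24 ± 0.0692 CPM in wild-type pools (SD, n = 3 each; log2 fold change 0.48 ± 0.25 SE, adjusted p = 0.191 by edgeR). The alkaline ceramidase gene Acer3, 34862 bases above it, had 0.732 ± 0.157 CPM in mutant, against 0.623 ± 0.303 CPM in wild-type pools (SD, n = 3 each; log2 fold change 0.23 ± 0.35 SE, adjusted p = 0.694 by edgeR). Both neighbours were below 2.2 CPM in every pool, with overlapping genotypes, so the depth limits what can be said of them. The olfactory marker gene Omp and the noncoding gene Gm16938 overlap Capn5 on 2089 and 1753 bases and were not analysed here. These overlaps are of whole gene spans, introns included, and whether exons are shared was not examined. The kit that the labels name keeps no strand information, so reads of any shared exon could not be told apart from reads of Capn5.

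The genes of the classical enzyme all stood higher in mutant platelets, though Capn1 did not pass the threshold in the main fit. Capn2, the catalytic subunit of m-calpain (Entrez 12334, minus strand of chromosome 1, 182467253 to 182517610), had 233, 242 and 218 CPM in mutant, against 148, 158 and 127 CPM in wild-type pools. The 2 genotypes did not overlap, and the lowest mutant pool was above the highest wild-type pool by a wide margin relative to the spread within either group. On the log2 scale mutant exceeded wild type by 0.68 ± 0.11 (SE), with adjusted p = 0.000244 (edgeR, quasi-likelihood, Benjamini-Hochberg over all genes). Capns1, the small subunit that both classical enzymes need for stability (Entrez 12336, minus strand of chromosome 7, 30186934 to 30198883), had 348, 370.3 and 348 CPM in mutant, against 237, 269 and 229 CPM in wild-type pools. Here too the groups were apart, and day 2 was the highest day of both genotypes. The difference was 0.54 ± 0.11 on the log2 scale (SE), with adjusted p = 0.0014 by edgeR. The call of Capns1 was lost without day 1 (adjusted p = 0.0877) and without day 2 (0.0558), where 2 pools remained per genotype, its alternatives spanning 3.09e-21 to 0.0877.

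Capn1, the catalytic subunit of mu-calpain (Entrez 12333, minus strand of chromosome 19, 5988545 to 6015825), had 11.3, 13.2 and 15.1 CPM in mutant, against 9.35, 10.9 and 10.6 CPM in wild-type pools. Mutant pools were all above wild-type pools, but by less relative to the spread than for Capn2. The log2 fold change was 0.36 ± 0.14 (SE), with a 95% interval of 0.07 to 0.64 and adjusted p = 0.0695 by edgeR. In the fit blocked by preparation day it passed (adjusted p = 0.000351 by edgeR and 0.0337 by DESeq2), its alternatives spanning 0.000351 to 0.344.

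Capn7, a calpain with microtubule-interacting and trafficking domains that bind the ESCRT-III membrane remodelling proteins, passed by a narrow margin. The gene (Entrez 12339, plus strand of chromosome 14, 31336622 to 31371987) had 11.5, 10.6 and 10.3 CPM in mutant, against 8.27, 8.81 and 7.78 CPM in wild-type pools. The groups were apart on all 3 days. Mutant exceeded wild type by 0.39 ± 0.13 on the log2 scale (SE), with adjusted p = 0.0409 by edgeR, and the call was lost in 13 of 17 alternatives, among them the one without mutant replicate 1 (0.267) and the one without day 1 (0.353), in a range of 0.000344 to 0.353. Capn15, the mammalian relative of the fly gene small optic lobes (Entrez 50817, chromosome 17), had only 8 to 20 reads per mutant and 12 to 25 reads per wild-type pool. Its levels were 0.298, 0.653 and 0.742 CPM in mutant, against 0.464, 0.790 and 0.807 CPM in wild-type pools, and the genotypes overlapped. A difference was not detectable at this depth (log2 fold change -0.29 ± 0.36 SE, 95% interval -1.04 to 0.46, adjusted p = 0.619 by edgeR).

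Cast, which encodes the inhibitor calpastatin (Entrez 12380, minus strand of chromosome 13, 74692366 to 74808874, up to 32 exons), was on the other side of 0. It had 4.25, 4.21 and 5.34 CPM in mutant, against 4.95, 4.86 and 6.10 CPM in wild-type pools. The mutant pool was the lower one on each day, but the genotypes overlapped across days, because day 3 was the highest day in both. The log2 fold change was -0.21 ± 0.17 (SE), with a 95% interval of -0.56 to 0.14 and adjusted p = 0.423 by edgeR. Cast shares 840 bases with the aminopeptidase gene Erap1, which averaged 0.692 ± 0.302 CPM in mutant, against 1.17 ± 0.200 CPM in wild-type pools (SD, n = 3 each), so the value of Cast is uncertain to that extent.

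**Figure D2:**
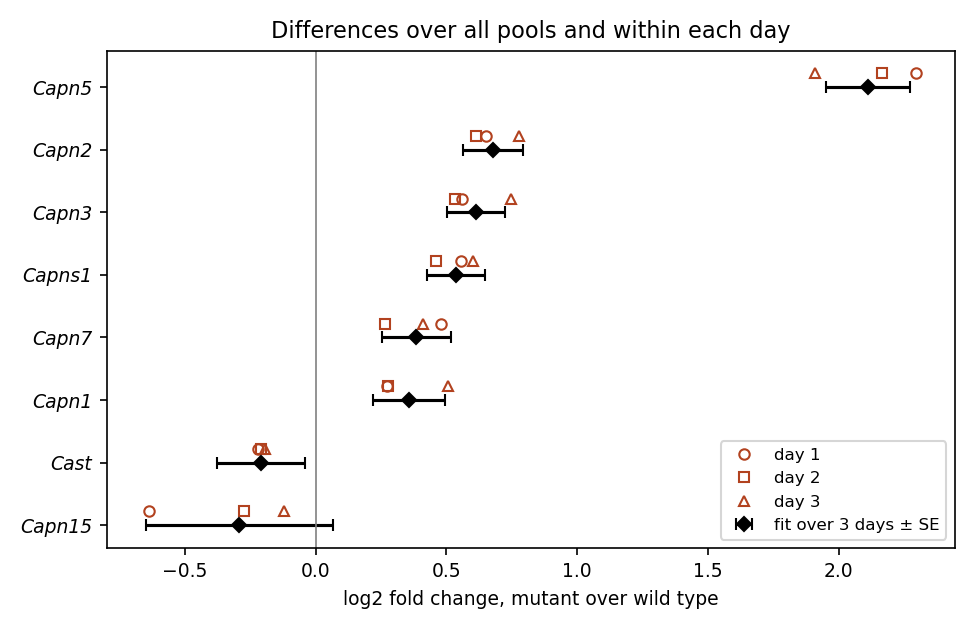
Log2 fold change of mutant over wild type for each gene, with the fit over all 6 pools as a diamond with its SE and the difference within each preparation day as an open symbol. Capn5 stands at 2.11, the 5 genes Capn2, Capn3, Capns1, Capn7 and Capn1 lie between 0.36 and 0.68 with all days above 0, and Cast and Capn15 lie below 0 on all days.

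Of the 6 members measured besides Capn5, Capn2, Capns1 and Capn7 were called higher and 0 lower, where 12.9% of all 9822 genes were called higher, 9.16% lower and 22.1% either way. With the day as a block Capn1 joined them, where 22% of all genes were called higher, 18% lower and 40% either way. Nothing is read from this comparison, since the family was chosen on the same contrast. The full calpain family list held 16 genes, of which 7 besides Capn5 were measured. The gene it adds is Capn3, best known as the muscle calpain whose loss causes a limb-girdle muscular dystrophy. Capn3 (Entrez 12335, chromosome 2) had 94.4, 91.6 and 94.4 CPM in mutant, against 64.0, 63.3 and 56.2 CPM in wild-type pools. The mutant pools differed little among themselves and stood well clear of the wild-type pools, by 0.61 ± 0.11 on the log2 scale (SE), with adjusted p = 0.00044 by edgeR. With it 4 of these 7 genes were higher and 0 lower, and the median log2 fold change was 0.39, beside -0.04 over all genes tested. Mutant and wild-type pools did not overlap, mutant above, for 5 of the 7, and for 20.4% of all genes. Mutant pools were below in 15.9%, and 36.3% were apart either way. The count was 2 without day 1 and 2 without day 2, and Capn2 and Capn3 were called in every alternative run. Of the markers given above, 4 of 10 platelet markers were higher and 1 lower, and 1 of 4 endothelial markers was higher. B cell markers (4 of 10 lower) and the smaller share of the 10 most abundant genes moved with the same contrast. The part of all these in the calpain differences was not tested.

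The promoter windows of Capn2 and Capn7, members that passed the test, are printed next, since their transcripts were higher together. They come from RefSeq (GRCm38.p6) and run from 250 bases before to 50 bases after the annotated start, 5′ to 3′ on the strand of the gene. The table held a window for 7 of the 8 members, all but Capn5. That of Capns1 is not printed, because its start lies inside the gene, away from the outer end given above. Capitals mark matches, on either strand, to 3 short motifs. The first is AGATAA, which is bound by GATA1. The second is CCGGAA, which is bound by ETS proteins such as FLI1, and both of these factors are main activators of megakaryocyte genes. The last is the GC box, searched as GGGCGG.
Capn2, chr1:182517561-182517860, minus strand: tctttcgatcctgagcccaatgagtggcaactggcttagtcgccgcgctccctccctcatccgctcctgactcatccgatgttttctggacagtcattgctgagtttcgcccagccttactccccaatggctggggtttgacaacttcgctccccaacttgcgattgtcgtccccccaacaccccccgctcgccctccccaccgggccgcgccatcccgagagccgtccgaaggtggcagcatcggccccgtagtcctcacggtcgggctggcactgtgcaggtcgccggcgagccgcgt
Capn7, chr14:31336388-31336687, plus strand: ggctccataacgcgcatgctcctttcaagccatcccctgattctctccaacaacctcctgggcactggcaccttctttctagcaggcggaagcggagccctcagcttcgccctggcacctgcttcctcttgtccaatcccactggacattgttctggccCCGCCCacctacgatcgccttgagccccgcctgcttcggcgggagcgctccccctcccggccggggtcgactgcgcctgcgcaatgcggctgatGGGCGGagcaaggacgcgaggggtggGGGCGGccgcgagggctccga

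The window of Capn2 held 0 matches to any of the 3 motifs, and that of Capn7 held 3 GC boxes and none of the other motifs. Over 32851 promoter windows of 300 bases, 11.2% held the GATA letters, 14.9% the ETS letters and 35.7% the GC box. The absence of a match says only that these letters are not in the window. The GC content was 64.3% for Capn2 and 67.0% for Capn7.

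Levels of different genes were compared per length, as CPM divided by the deposited gene length in kilobases (RPKM). Capns1 was the most abundant gene of the family in both genotypes, at 248 ± 9.07 RPKM in mutant and 171 ± 14.9 RPKM in wild-type platelets (SD, n = 3 each). Capn2 followed with 72.5 ± 3.75 RPKM in mutant and 45.3 ± 4.94 RPKM in wild-type pools, and then Capn3 with 26.8 ± 0.461 and 17.5 ± 1.24 RPKM. Capn1, at 4.14 ± 0.595 RPKM in mutant and 3.23 ± 0.263 RPKM in wild-type pools, was far below Capn2. Thus Capn2 was the main classical catalytic subunit at the transcript level in these mouse platelets, in all 6 libraries.

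Below Capn1 the order of the genes differed between genotypes, and Capn5 was the gene that changed place. In wild-type platelets the order went on with Capn7 (2.33 ± 0.145 RPKM), Cast (1.83 ± 0.240 RPKM), Capn5 (0.944 ± 0.172 RPKM) and Capn15 (0.209 ± 0.0589 RPKM), and no neighbours in it had overlapping pools. In mutant platelets Capn5, at 4.10 ± 0.655 RPKM, came next to Capn1, and the pools of these neighbours overlapped. Capn7 (3.04 ± 0.175 RPKM), Cast (1.59 ± 0.222 RPKM) and Capn15 (0.172 ± 0.0714 RPKM) followed, each apart from the next. Among all 9822 genes Capn5 ranked 2960 by mean RPKM in mutant and 5845 in wild-type platelets. Of the summed RPKM of the 6 measured catalytic genes, Capn5 held 4.23%, 3.04% and 3.86% in mutant and 1.35%, 1.02% and 1.76% in wild-type pools. The change of place, rank and share of Capn5 restates the rise for which the family was chosen. The share of Capn2 was 65.4 ± 1.8% in mutant and 65.1 ± 1.5% in wild-type pools (SD, n = 3 each), so it stayed the dominant catalytic transcript.

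**Figure D3:**
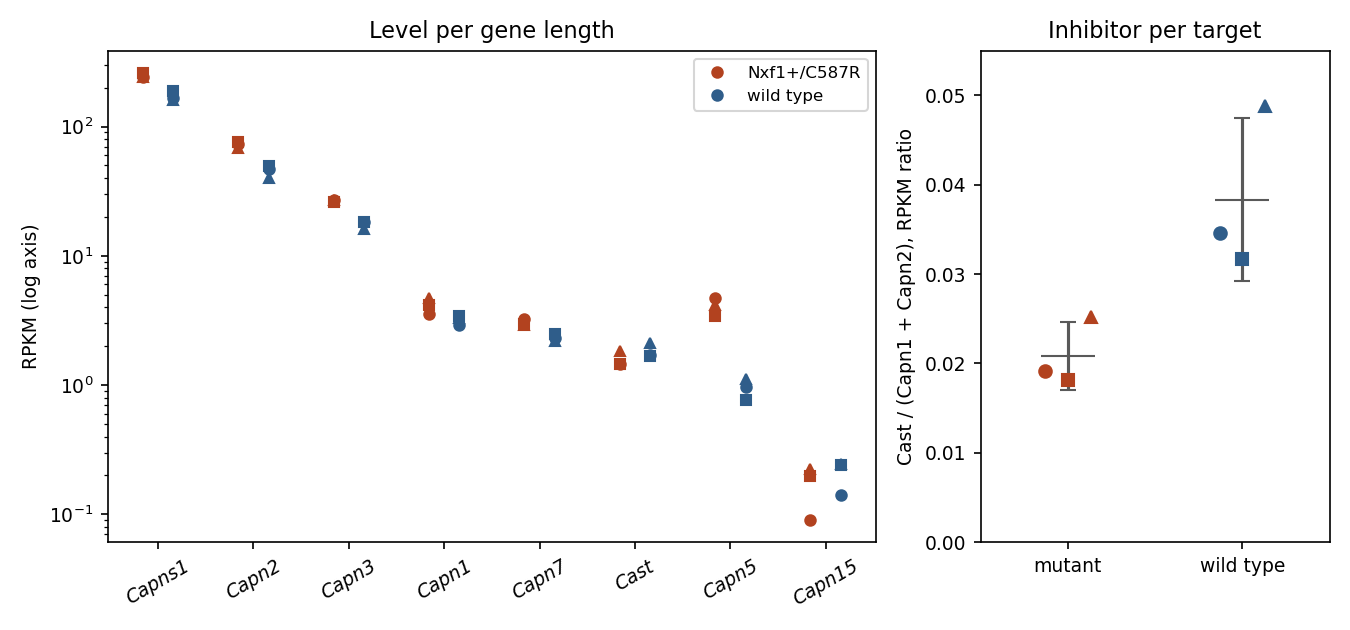
Left, level of each gene per length in RPKM on a log axis, in the order of the wild-type means, with mutant pools left of wild-type pools and one symbol per preparation day. Right, RPKM of Cast divided by the summed RPKM of Capn1 and Capn2 in each pool, with mean and SD. Capn5 lies near 1 RPKM in wild-type pools and near Capn1 in mutant pools, and the Cast ratio is below 0.026 in every mutant pool and above 0.031 in every wild-type pool.

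Ratios within a library, which do not depend on how libraries are scaled and do not use Capn5, were compared next. The RPKM of Cast per summed RPKM of its targets Capn1 and Capn2 was 0.0192, 0.0182 and 0.0252 in mutant and 0.0345, 0.0317 and 0.0488 in wild-type pools. All mutant pools were below all wild-type pools, and the log2 difference was -0.87 overall and -0.85, -0.80 and -0.95 within days 1, 2 and 3. The two-sided exact permutation test gave p = 0.1, the smallest that 3 against 3 allows, and adjusted p = 0.15 over the 3 ratios. Calpastatin transcript per classical calpain transcript was lower in the mutant pool on all 3 days. Paired by day, the exact permutation test cannot go below p = 0.25, which it gave. Most of the difference in this ratio lay in its denominator, which is mainly Capn2, with a log2 fold change of 0.68. Cast itself had -0.21 (adjusted p = 0.423 by edgeR), so the ratio does not show a lower level of Cast.

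Capns1 per summed Capn1 and Capn2 was 3.17, 3.24 and 3.32 in mutant and 3.35, 3.55 and 3.71 in wild-type pools. The groups did not overlap, but the log2 difference of -0.12 was small (exact permutation p = 0.1, adjusted p = 0.15). Capn2 per Capn1 was 20.7, 18.3 and 14.5 in mutant and 15.9, 14.5 and 12.0 in wild-type pools. These groups overlapped across days, with the mutant pool higher on each day (log2 difference 0.33, exact permutation p = 0.2, adjusted p = 0.2).

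Genes whose profile over the 6 libraries was most like that of Capn5 were found by Pearson correlation of log2 CPM among genes of at least 10 CPM. They were Flna, which encodes the actin crosslinker filamin A (r = 0.994), Ankfy1, an endosomal protein (0.994), Tm4sf19 (0.993), Ldha, a subunit of lactate dehydrogenase (0.992) and Arhgap23 (0.992). Each was chosen for this likeness, and the 6 points share genotype and day, so no p is given. Their log2 fold changes were 0.83, 0.38, 0.93, 0.67 and 1.09.

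Genes for proteins that calpain cleaves in platelets were examined next. Of 20 listed and measured, 12 were higher and 0 lower, beside 12.9% and 9.16% of all genes. With the day as a block 15 were higher and 1 lower, beside 22% and 18% of all genes, and the median log2 fold change was 0.39. Src, a tyrosine kinase that calpain cuts, had 75.5, 59.0 and 69.9 CPM in mutant, against 33.5, 26.8 and 29.6 CPM in wild-type pools, again with no overlap (log2 fold change 1.19 ± 0.13 SE, adjusted p = 1.52e-06 by edgeR). Flna averaged 1905 ± 129 CPM in mutant, against 1068 ± 57.5 CPM in wild-type pools (SD, n = 3 each). Myh9, the nonmuscle myosin heavy chain, had a log2 fold change of 0.72 ± 0.12, and Vav1, an exchange factor for Rac, 0.70 ± 0.11. The 8 genes that did not pass included Ptpn1, the phosphatase PTP1B (0.30), the cortactin gene Cttn (0.16) and the pro-apoptotic gene Bid (-0.18). The higher count was 6 without mutant replicate 2, 7 without day 1 and 6 without day 2. The list was drawn up with earlier results of these data known, and several of its genes are abundant platelet cytoskeleton genes.

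Genes of calcium entry and stores govern the supply of the ion that calpains need. Of 20 measured 6 were higher and 0 lower, beside 12.9% and 9.16% of all genes, with a median log2 fold change of 0.05. With the day as a block 9 were higher and 4 lower, beside 22% and 18% of all genes. Atp2a3, the SERCA3 pump that refills platelet stores, averaged 7337 ± 227 CPM in mutant, against 4477 ± 387 CPM in wild-type pools (SD, n = 3 each), which is higher by 0.71 ± 0.12 on the log2 scale (SE), with adjusted p = 0.000172 by edgeR. The store-operated channel gene Orai2 (0.60), the store sensor gene Stim1 (0.48) and Saraf, which slows that entry (0.49), were also higher. Of the rest, Itpr2, an inositol trisphosphate receptor gene, had -0.11, and Calm2, a calmodulin gene, -0.31. The higher count was 2 without mutant replicate 1, 3 without mutant replicate 2, 3 without day 1 and 1 without day 2.

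Partners of Capn7 and proteins with a penta-EF-hand fold were listed too. Listed as ESCRT-III genes were 15 genes for ESCRT-III and associated proteins, such as Vps4a and Vta1. Of these 2 were higher and 1 lower, beside 12.9% and 9.16% of all genes, with a median log2 fold change of 0.00. With the day as a block 5 of them were higher and 1 lower, beside 22% and 18% of all genes. Chmp1a and Chmp1b, paralogues whose products bind CAPN7 in human cells, went opposite ways. Chmp1a had 168, 190 and 165 CPM in mutant, against 120, 130 and 104 CPM in wild-type pools (log2 fold change 0.56 ± 0.12 SE, adjusted p = 0.00163 by edgeR). The other paralogue, Chmp1b, had 63.3, 56.4 and 51.4 CPM in mutant, against 87.8, 88.3 and 72.1 CPM in wild-type pools (-0.54 ± 0.12 SE, adjusted p = 0.00325 by edgeR). Neither overlapped between genotypes, and both calls were lost without day 2 (adjusted p = 0.0634 and 0.0738, in ranges of 1.25e-18 to 0.0634 and 1.39e-13 to 0.0738). Ist1, another partner of CAPN7, had -0.17 (adjusted p = 0.448 by edgeR). Of the 6 measured penta-EF-hand genes Capn2, Capns1 and Pdcd6, which encodes the calcium sensor ALG-2 (0.39), were higher and 0 lower. The shares of all genes were 12.9% and 9.16%. With the day as a block 5 were higher and 0 lower, beside 22% and 18% of all genes. Capn1, Capn2 and Capns1 in this list are the members described above, so the list is not separate from them. Sorcin, encoded by Sri, had 0.23 and peflin, encoded by Pef1, 0.08. The ESCRT-III higher count was 1 without either mutant replicate 1 or 2, without any 1 wild-type replicate and without day 1, and 0 without day 2. The penta-EF-hand count was 1 without day 1 and 1 without day 2. The call of Pdcd6, the only called gene of that list outside the calpain family, was lost in 12 of 18 alternatives.

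**Figure D4:**
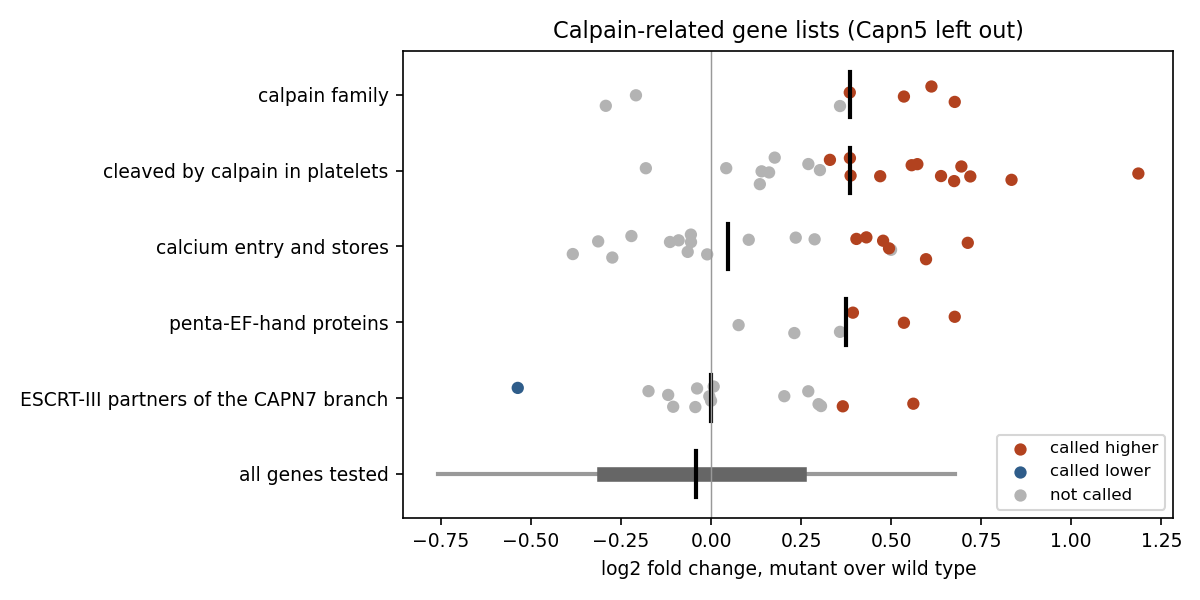
Log2 fold change of mutant over wild type for each measured gene of 5 lists, coloured by the edgeR call, with Capn5 left out and black ticks at the medians. The bottom bar gives all genes tested, with the 25th to 75th percentiles as the thick part and the 5th to 95th as the thin part. The medians of the calpain family and of the cleaved proteins are both 0.39, against -0.04 for all genes and 0.05 for calcium entry and stores.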

How the data were processed

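Each library is a pool of purified mouse platelets. The deposited files hold unnormalized counts of reads per Entrez gene beside the gene length, per the file headers. CASAVA 1.8.2, Subread and featureCounts with the mm10 build are named in the submitters' processing notes, with no settings. All 9822 genes exceeded 0.5 CPM in 3 or more libraries, and 9636 were named through the RefSeq table of GRCm38.p6, which also gave coordinates. Strand and exon numbers come from GENCODE.

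Counts were tested with edgeR 4.0.16 (R 4.3.3; TMM, robust quasi-likelihood, genotype as the only term, two-sided, Benjamini-Hochberg over all genes at 0.05). A gene past that threshold is called higher or lower. CPM uses TMM-scaled totals, an SE is the log2 fold change divided by the square root of F, and intervals are at 95%. Alternatives used DESeq2 1.42.0, limma 3.58.1 (voom), other scalings and filters, libraries or days left out, and the day as a block. The members and lists were chosen with earlier results of these data known. Named genes were all family members, up to 4 called genes per list by p, tested neighbours of Capn5 within 200 kb, the 5 genes most like it, and Nxf1. Others, such as uncalled list genes, were chosen after their values were seen.

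The labels give each pool its preparation day, which pairs the libraries. Same-day libraries had correlations of 0.431, 0.271 and 0.482 between their deviations from the group means, and libraries of different days had -0.0104 or less. The deviations cancel within a group for each gene, so positive same-day values bring negative ones across days, and the contrast is partly built in. Libraries of 1 genotype differed beyond sampling noise, with a chi-square per gene of 14.5 or more. The animals per pool are unknown, and p-values cover the spread among pools only.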

Additional observations from a re-analysis of the deposited data

How the results depend on the processing

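Capn5 kept its direction in all 18 alternatives, with a log2 fold change of 1.93 to 2.25. In the fit on genes that averaged 10 CPM or more all values shifted by a median of -0.17, and Capn7, Capn15 and Cast were not in it. The 3 ratios kept their direction and moved by less than the spread between pools. Leaving out 1 library or day gave 2 to 4 calpain family genes higher, 485 to 1388 of all genes higher and 520 to 1008 lower. The same fits gave 6 to 14 cleaved-protein genes higher and 0 to 1 lower, 1 to 7 calcium genes higher and 0 to 2 lower, 0 to 3 ESCRT-III genes higher and 0 to 1 lower, and 1 to 3 penta-EF-hand genes higher. They gave 0 to 2 caspase genes higher and 0 to 1 lower, and 0 to 2 cathepsin genes higher and 0 to 2 lower. Log2 ratios without 1 library were 0.21 to 0.47 for Capn2 per Capn1, -0.16 to -0.09 for Capns1 and -1.01 to -0.68 for Cast.

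The day as a block gave 2164 genes higher and 1765 lower by edgeR. By edgeR it gave 1 cleaved-protein gene lower, 4 calcium genes lower, 5 ESCRT-III genes higher, 5 penta-EF-hand genes higher, 4 caspase genes higher, and 5 cathepsin genes higher and 2 lower. DESeq2 with the same block gave 1 cleaved-protein gene lower, 2 calcium genes lower, 4 ESCRT-III genes higher, 5 penta-EF-hand genes higher and 1 caspase gene higher. With the block the ratios had p = 0.25 by an exact permutation test, the smallest that 3 pairs allow. Of the members measured, only Capn1 gained a call with the block, and none lost one.

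Among genes that averaged 10 CPM or more 723 were higher, with 1 cleaved-protein gene lower, 4 calcium genes lower, 2 ESCRT-III genes lower, 1 caspase gene higher and 0 cathepsin genes higher. Upper-quartile factors gave 1 calcium gene lower and 0 cathepsin genes higher. Library size alone gave 2 calcium genes lower, 1 caspase gene higher and 0 cathepsin genes higher. Without the 10 most abundant genes 1 ESCRT-III gene and 0 cathepsin genes were higher and 1 cathepsin gene was lower. DESeq2 size factors gave 1 ESCRT-III gene higher, and DESeq2 gave 0 cathepsin genes higher. The causes were not tested. A fit without a filter was not run, since the filter removed 0 genes. Depth limits Capn15, Myo7a, Acer3 and Cst7.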

Other observations

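Other cysteine proteases were measured beside the calpains. Of 9 genes for caspases and their inhibitor, 2 were higher in mutant platelets and 0 lower, beside 12.9% and 9.16% of all genes (4 and 0 with the day as a block, beside 22% and 18%), with a median log2 fold change of 0.10. Casp1, the inflammasome caspase, averaged 3.43 ± 0.338 CPM in mutant, against 2.22 ± 0.0634 CPM in wild-type pools (SD, n = 3 each; log2 fold change 0.63 ± 0.19 SE, adjusted p = 0.0181 by edgeR). Xiap, an inhibitor of caspases, had 0.44 ± 0.12 (adjusted p = 0.0113 by edgeR). The call was lost in 9 of 17 alternatives for Casp1 and in 5 of 18 for Xiap.

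Of 11 measured genes for cathepsins and cystatins, 2 were higher and 0 lower, beside 12.9% and 9.16% of all genes (5 and 2 with the day as a block, beside 22% and 18%), with a median of 0.12. These were Ctsa, a lysosomal carboxypeptidase (0.43, adjusted p = 0.0374 by edgeR), and Cst7, which encodes cystatin F (0.74, adjusted p = 0.0352 by edgeR). The call was lost in 12 of 17 alternatives for Ctsa and in 14 of 17 for Cst7, which had only 18 to 40 reads per pool. Ctsd, a lysosomal aspartic protease, had 0.12 (adjusted p = 0.513 by edgeR). Of 5 measured neutrophil and monocyte markers only Lyz2 was called, as higher in mutant pools (0.49). S100a8 (0.19), S100a9 (-0.03), Csf1r (0.14) and Cd68 (0.19) were not called, and their genotypes overlapped. Of 4 measured endothelial markers Plvap was called higher (0.39), or 4 of 4 with the day as a block. The shares of all genes called higher were 12.9%, and 22% with the block. Lyz2 and Plvap were named after their values were seen.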
